A study of Mus musculus with 4 samples.

Results

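Nrg1 and its receptor genes Erbb2, Erbb3 and Erbb4 were followed through 4 single-cell RNA-seq libraries of the mouse Mesp1 lineage. They were chosen by symbol and are 4 of the 27998 genes listed in each library. All cells came from Mesp1Cre;Rosa26-GFPflox/+ embryos on the Swiss Webster background, in which Cre driven from Mesp1 marks early mesoderm and its descendants with GFP. GFP-positive, DAPI-negative cells were sorted from tissue pooled over several embryos, and 1 library was made with the 10x 3′ kit, version 2, at each stage, namely E8.0, E8.25, E9.5 and finally E10.5. For both early libraries (E8.0, E8.25) the upper part of the body was dissected, for both late ones (E9.5, E10.5) heart and pharyngeal apparatus, so stage and dissected region cannot be told apart. No level was tested between single stages. There is no mutant or treated group: the 4 libraries differ in stage, region and depth.

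Neuregulin 1 is a growth factor with an EGF-like domain that binds ErbB3 and ErbB4. ErbB2 has no known ligand of its own and acts as the partner of the other receptors, while the kinase of ErbB3 is weak, so that it signals mainly as a partner. In the embryonic heart, neuregulin from the endocardium acts on ErbB2 and ErbB4 of the myocardium during trabeculation, and ErbB3 is known from neural crest derivatives and from the cushions of the valves.

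On GRCm38.p6, Nrg1 (ENSMUSG00000062991) lies at chr8:31807452-32891609, Erbb2 (ENSMUSG00000062312) at chr11:98412484-98437716, Erbb3 (ENSMUSG00000018166) at chr10:128567523-128589635 and Erbb4 (ENSMUSG00000062209) at chr1:68031884-69108576, and all 4 are protein-coding genes. Of their GENCODE transcripts 2 stretches are written here 5′ to 3′, showing the part of the ligand that binds receptors and the part of each kinase that carries the catalytic aspartate. In the EGF-like domain of Nrg1 the 6 cysteine codons are in capitals, and the forms with the alternative ends, called beta and alpha, are shown because counts from the 3′ end of the messages cannot tell them apart:
Nrg1-201, beta form: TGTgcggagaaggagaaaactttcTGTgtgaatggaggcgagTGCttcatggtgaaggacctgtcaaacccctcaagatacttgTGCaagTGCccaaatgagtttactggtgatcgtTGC
Nrg1-203, alpha form: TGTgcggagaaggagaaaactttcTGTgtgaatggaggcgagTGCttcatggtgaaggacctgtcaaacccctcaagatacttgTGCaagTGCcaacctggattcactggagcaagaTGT
The forms share 108 of 120 bases and 36 of 40 residues, and they part only after the fifth cysteine codon. In the catalytic loop of the receptors the aspartate codon is in capitals:
Erbb2-001: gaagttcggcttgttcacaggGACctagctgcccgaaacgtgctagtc
Erbb3-001: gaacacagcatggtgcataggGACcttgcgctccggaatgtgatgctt
Erbb4-001: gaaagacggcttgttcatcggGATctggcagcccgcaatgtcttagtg
Over this window Erbb2 and Erbb4 share 35 of 48 bases and 15 of 16 residues. Erbb3 shares 29 bases with Erbb2 and 28 with Erbb4, and 10 residues with each.

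After filters, 7118, 2884, 3921 and 7525 cells remained in the 4 libraries, listed here and below in order of stage, with median depths of 21321, 35216, 17254 and 15205 UMIs (unique molecular identifiers, the counted molecules). Cells were placed in gates by how many markers of a list they held, and no gate used a member. The endothelial gate held 481, 182, 204 and 382 cells, the cardiomyocyte gate 237, 31, 371 and 185, and the cardiac and muscle progenitor gate 1001, 472, 1176 and 1246. Endothelial cells with a UMI of Nfatc1, a transcription factor of the endocardium, were called endocardial (158, 50, 85 and 151 cells), and the other endothelial cells vascular, a set that can also hold endocardial cells in which no Nfatc1 molecule was captured. The endothelial list summed to 1344 to 2188 CPM (UMIs per 1000000) in the endothelial gate and to 51.2 to 144 in the cardiomyocyte gate, and the cardiomyocyte list to 17415 to 29799 in the cardiomyocyte gate and to 54.2 to 115 in the endothelial gate. The progenitor gates were less sharp: between 50.5% and 91.8% of their cells held only the 3 markers needed. The cardiac progenitor list summed to 317 to 697 CPM in the cardiac progenitor gate but to 876 to 1526 in the cardiomyocyte gate. The cardiomyocyte list summed to 343 to 581 CPM in the cardiac progenitor gate. The muscle progenitor list summed to 309 to 662 CPM in the muscle progenitor gate and to 91.5 to 245 in the cardiac progenitor gate. Erythroid-gated cells, blood cells that should lack the members, gave the background (65, 316, 4 and 1026 cells, the 4 at E9.5 being too few to use). The erythroid list summed to between 2776 and 5010 CPM in the other gates at E8.25 and E10.5 and to at most 138 at E8.0 and E9.5, and leaving haemoglobin, mitochondrial and ribosomal protein genes out of the totals raised the levels of the endothelial, cardiomyocyte and progenitor sets in every library by 0.37 to 0.50 on the log2 scale. The erythroid background rose more, at E10.5 from 0.285 to 0.847 CPM for Nrg1 and from 0.712 to 2.12 for Erbb2. Pairs of libraries shared 16 to 88 cell barcodes.

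The ligand came first. Over all retained cells, Nrg1 stood at 7.88, 7.69, 13.7 and 3.80 CPM from E8.0 to E10.5. It was thus highest at E9.5 and lowest at E10.5, and the steps into and out of E9.5 were beyond counting error (log2 ratio 0.84, 95% interval 0.70 to 0.97, and -1.86, interval -2.02 to -1.70). Intervals here cover counting error only, not differences between embryos. In erythroid-gated cells Nrg1 was at 0.457, 0.767 and 0.285 CPM at E8.0, E8.25 and E10.5.

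These totals hid courses that differed between compartments. In endocardial cells Nrg1 stood at 7.40, 9.63, 60.9 and 23.7 CPM, from 27, 16, 98 and 68 UMIs. In vascular cells it stood at 12.4, 10.4, 15.5 and 10.3 CPM, with no adjacent step beyond counting error. The endocardial level was higher at E9.5 than at E8.25 by 2.66 on the log2 scale (interval 1.89 to 3.52) and lower again at E10.5 (-1.36, interval -1.83 to -0.90). The late endocardial levels were above every vascular level. The early ones were below the vascular levels of the same libraries, at E8.25 within counting error (log2 ratio -0.11, interval -1.05 to 0.75).

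Compared with those at E8.0, single endocardial cells held more Nrg1 at E9.5. There 34 of 85 cells (40.0%, exact binomial interval 29.5 to 51.2) had a UMI, 12 had 3 or more and 1 had 14, while at E8.0 20 of 158 (12.7%, interval 7.91 to 18.9) had a UMI and the highest cell held 4. With each cell thinned to 5000 UMIs the shares were 1.27%, 10.0%, 22.4% and 10.6% from E8.0 to E10.5. The erythroid-gated share was 1.54%, 4.11% and 0.780% unthinned and 0%, 0.633% and 0.292% thinned at E8.0, E8.25 and E10.5, in cells with median depths of 35431, 52332 and 28150 UMIs against 22872, 32848 and 17898 in endocardial cells. At E8.0 the endocardial thinned share rested on 2 cells. Holding 3 or more UMIs was not particular to endocardial cells: in the deeper E8.25 library 16 of 106 muscle progenitors did.

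Cardiomyocyte-gated cells had little Nrg1 in the late libraries. Their level was 5.22 CPM at E8.0 (23 UMIs), 6.11 at E8.25 (6 UMIs), 1.69 at E9.5 (11 UMIs) and 0 at E10.5, where 0 of 185 cells had a UMI, which, at 3 counts of the total, allows a share of cells with a UMI of up to 1.62% at this depth. At E8.0 and E8.25 the level was above the erythroid background and near that of cells in no gate (5.89 and 5.62 CPM). At E9.5 it was lower than in the other gates of 20 or more cells.

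Progenitor-gated cells had the highest Nrg1 levels of the gates in the early libraries, in CPM. Cardiac progenitors (markers such as Isl1, Nkx2-5 and Fgf10) stood at 16.7, 17.6 and 16.6 CPM from E8.0 to E9.5 and at 3.07 at E10.5, a step of -2.43 on the log2 scale (interval -3.05 to -1.86). Muscle progenitors (markers such as Tcf21, Msc and Lhx2) stood at 22.2, 32.6, 23.6 and 10.51 CPM. Cells that passed both progenitor lists were at 32.5, 32.6, 24.2 and 17.7 CPM, in 57, 79, 139 and 60 cells. All 3 sets were lowest at E10.5.

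The make-up of the Nrg1 signal depends on the levels and on the number of cells in each gate. Cardiac progenitors, 13.4%, 12.7%, 15.3% and 7.34% of the cells, held 32.3%, 31.0%, 19.4% and 5.97% of a library's Nrg1 UMIs, while endocardial cells, 1.73% to 2.22% of the cells, held 2.26%, 1.96%, 10.1% and 14.0%. Muscle progenitors, 0.688%, 3.68%, 14.7% and 9.22% of the cells, held 2.01%, 15.3%, 28.6% and 24.7%. Cells in no gate held 37.6% to 54.5%, at 3.16 to 9.76 CPM.

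**Figure D1:**
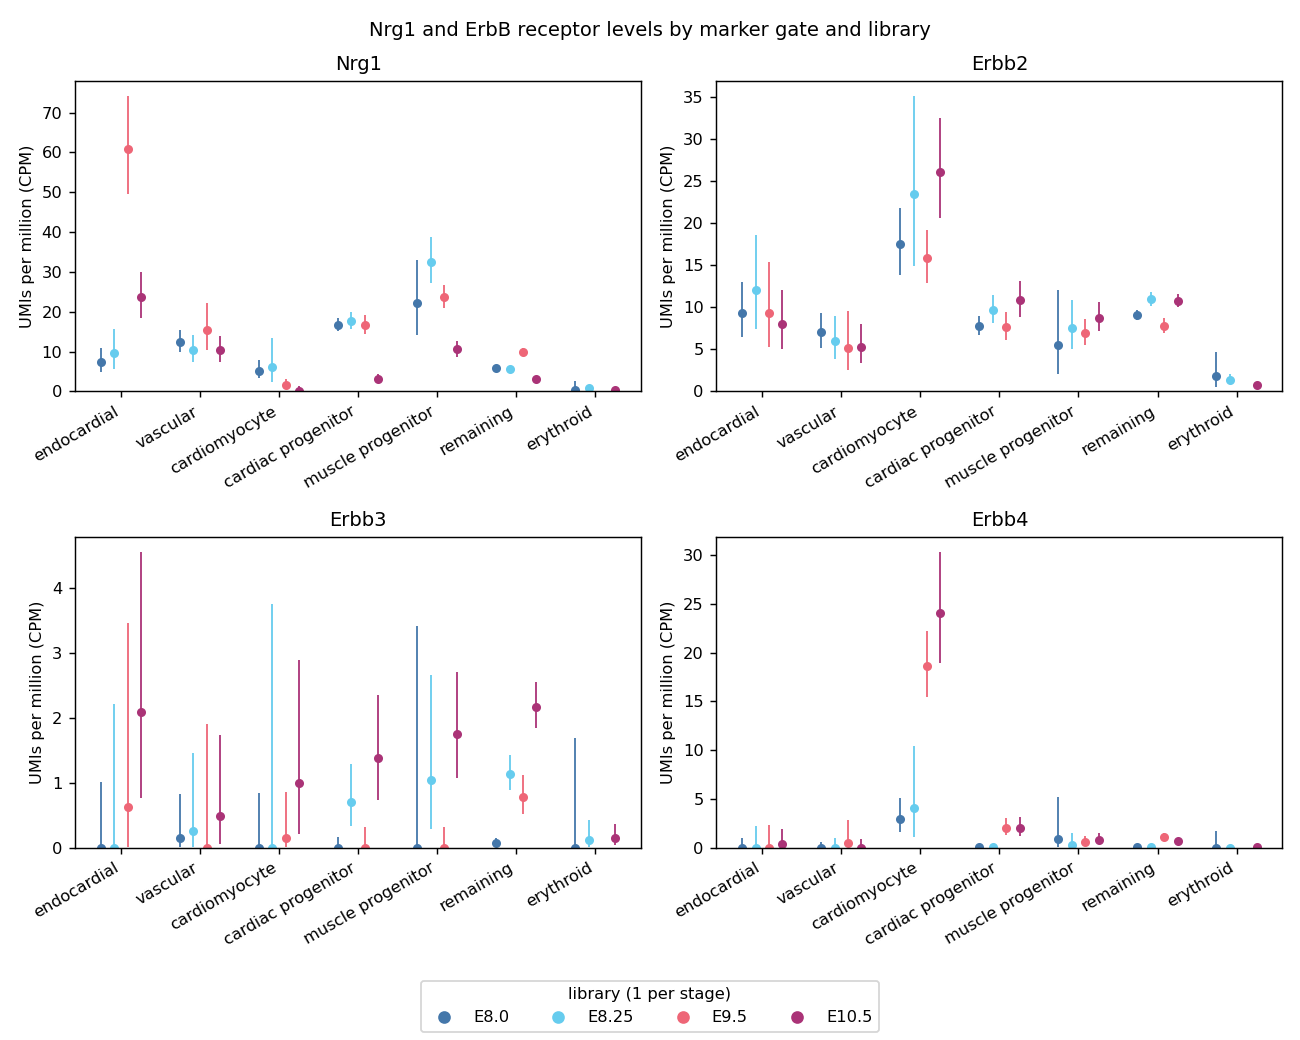
Level of each gene in CPM (y axis, linear) by marker gate (x axis) and library (colour), for sets of 20 or more cells, with exact Poisson 95% intervals as bars. Nrg1 peaks in endocardial cells at E9.5 (60.9) and is at 0 in cardiomyocyte-gated cells at E10.5, Erbb2 is highest in cardiomyocyte-gated cells in all 4 libraries, and Erbb4 reaches 18.6 and 24.1 there at E9.5 and E10.5.

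Comparing gates within each library asks where ligand and receptors sit relative to each other, and here the 4 libraries serve as replicates with the library as a block. Across endothelial-gated and cardiomyocyte-gated cells, Nrg1 was higher in endothelial cells in 4 of 4 libraries, at 18.2 ± 12.2 CPM against 3.26 ± 2.89 (mean ± SD, n = 4). The difference was 2.68 ± 0.74 on the log2 scale (± SE; edgeR's quasi-likelihood test, Benjamini-Hochberg adjusted p = 0.0237), in a fit in which 41.2% of the genes tested passed. The libraries did not weigh equally. The log2 ratio within a library was 1.02 (interval 0.37 to 1.74) at E8.0, 0.74 (-0.48 to 2.24) at E8.25 and 4.42 (3.53 to 5.46) at E9.5. In the E10.5 library the level was at least 12.7-fold higher by the exact 95% limit of the ratio, the cardiomyocyte sum holding 0 UMIs. Without the E9.5 library the call was lost (1.88, adjusted p = 0.124 by edgeR), and likewise without E10.5 (2.23, adjusted p = 0.0546).

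The change in that difference from E8.0 and E8.25 to E9.5 and E10.5 was fitted after these levels had been seen to part there. Its p-values, here and below, restate that observation on the same libraries and are no independent support for it. The endothelial over cardiomyocyte difference of Nrg1 was 3.72 ± 0.61 larger on the log2 scale in the late libraries (edgeR, adjusted p = 0.00467), where 5.84% of the genes tested passed. For Erbb2 the same change was -0.37 (adjusted p = 0.670) and for Erbb4 0.42 (adjusted p = 0.691). Both groups of 2 libraries also differ in region.

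Within the endothelial gate the average over libraries showed little. Endocardial and vascular cells stood at 25.4 ± 24.7 and 12.2 ± 2.43 CPM of Nrg1 (n = 4), with a difference of 0.68 ± 0.32 (edgeR, adjusted p = 0.655), higher in endocardial cells in 2 of 4 libraries. Only 7 of 9943 genes, 0.0704%, passed in this comparison. The ratios by library were -0.74 (interval -1.43 to -0.10), -0.11 (-1.05 to 0.75), 1.97 (1.37 to 2.61) and 1.20 (0.63 to 1.79) from E8.0 to E10.5, and so of opposite sign early and late. The late against early change was 2.06 ± 0.35 (edgeR, adjusted p = 6.41e-06), with 3.67% of the genes tested passing. DESeq2 gave 2.005 with an unadjusted p of 0.00256 and no adjusted p, its own filter on low counts having removed the gene.

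Against progenitors the sign also turned. Endothelial cells had less Nrg1 than progenitor-gated cells at E8.0 and E8.25 (log2 ratio -0.68, interval -0.99 to -0.37, and -1.03, interval -1.46 to -0.62) and more at E9.5 and E10.5 (0.84, interval 0.55 to 1.13, and 1.14, interval 0.78 to 1.51). The difference between the averages of 18.2 ± 12.2 and 16.3 ± 6.31 CPM did not pass (0.17 ± 0.39, edgeR adjusted p = 0.749, in a fit with 42.1% of genes passing), while the late against early change was 1.84 ± 0.22 (adjusted p = 0.00236, with 7.39% of genes passing). Cardiomyocyte-gated cells had less Nrg1 than progenitors in 4 of 4 libraries, by -2.51 ± 0.43 (edgeR, adjusted p = 0.00369), in a fit in which 38.1% of genes passed. At E10.5 the cardiomyocyte level was at least 5.79-fold lower by the exact 95% limit. The change of this difference between early and late libraries, -2.02 ± 0.56, did not pass (adjusted p = 0.0930, with 3.69% of genes passing).

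Muscle progenitors had more Nrg1 than cardiac progenitors in 4 of 4 libraries. The means were 22.2 ± 9.06 and 13.5 ± 6.97 CPM, and the ratio within a library was 0.41 (interval -0.25 to 1.01), 0.88 (0.56 to 1.20), 0.51 (0.24 to 0.79) and 1.77 (1.18 to 2.41) on the log2 scale. This comparison was added after the levels had been seen, and at 0.89 ± 0.20 it did not pass (edgeR, adjusted p = 0.0561), with 3.64% of genes passing. DESeq2 put it past the threshold (0.91, adjusted p = 0.0143).

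The cardiac progenitors could be divided by how far they shared the cardiomyocyte markers. Those with 3 or more of the 8 markers had 20.1, 11.6, 6.31 and 0 CPM of Nrg1 from E8.0 to E10.5, the last from 0 UMIs in 96 cells. Those with fewer markers had 15.5, 20.5, 22.5 and 3.71 CPM. The cells with more markers were therefore above the others at E8.0 (log2 ratio 0.38, interval 0.06 to 0.69) and below them at E8.25 (-0.82, -1.29 to -0.38) and E9.5 (-1.83, -2.49 to -1.23).

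Erbb2, the receptor without a ligand, was found in every gate. Over all retained cells it stood at 8.89, 9.09, 8.31 and 8.52 CPM, and no adjacent step was beyond counting error. Cardiomyocyte-gated cells were highest, at 17.5, 23.4, 15.8 and 26.1 CPM from 77, 23, 103 and 79 UMIs. Endothelial cells stood at 7.82, 7.82, 7.06 and 6.40 CPM, cardiac progenitors at 7.76, 9.69, 7.68 and 10.8, and muscle progenitors at 5.56, 7.55, 6.91 and 8.75. The erythroid background was 1.83, 1.36 and 0.712 CPM at E8.0, E8.25 and E10.5. The lowest cardiomyocyte level was above the highest level of these other gates.

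The difference passed against both other gates. Endothelial cells had less Erbb2 than cardiomyocytes by -1.51 ± 0.21 on the log2 scale, with means of 7.27 ± 0.685 and 20.7 ± 4.85 CPM (edgeR, adjusted p = 0.00122, lower in 4 of 4 libraries). Cardiomyocytes had more than progenitors by 1.36 ± 0.14, the progenitor mean being 8.47 ± 1.17 CPM (edgeR, adjusted p = 0.000423, higher in 4 of 4 libraries). The ratio of cardiomyocytes to progenitors kept between 1.12 and 1.43 in the 4 libraries, and its late against early change was 0.11 (adjusted p = 0.897). The differences between endothelial cells and progenitors (-0.12 ± 0.16, edgeR adjusted p = 0.561) and between muscle and cardiac progenitors (-0.23 ± 0.14, adjusted p = 0.510) did not pass.

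Endocardial cells had more Erbb2 than vascular cells in 4 of 4 libraries, with 9.32, 12.0, 9.32 and 8.02 CPM against 7.005, 5.99, 5.17 and 5.28. Over all genes the difference of 0.66 ± 0.22 did not pass (edgeR, adjusted p = 0.444). In cardiac progenitors the Erbb2 ratio of cells with 3 or more cardiomyocyte markers to cells with fewer lay between -0.16 and 0.17 on the log2 scale, each within counting error. UMIs of Erbb2 were found in 24.9%, 45.2%, 22.6% and 33.0% of cardiomyocyte-gated cells, or in 9.28%, 6.45%, 9.46% and 9.73% after thinning. In erythroid-gated cells the shares were 6.15%, 6.96% and 1.95%, or 1.54%, 1.27% and 0.487% thinned. The cardiomyocyte cells had median depths of 18914, 32521, 17060 and 14835 UMIs, below those of the erythroid-gated cells.

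Erbb4, a receptor with both a ligand and an active kinase, had its highest levels in cardiomyocytes. Cardiomyocyte-gated cells had 2.95 CPM at E8.0 (13 UMIs), 4.07 at E8.25 (4 UMIs), 18.6 at E9.5 (121 UMIs) and 24.1 at E10.5 (73 UMIs). The 2 late levels were above the 2 early ones, and the step from E8.25 to E9.5 was beyond counting error (log2 ratio 2.19, interval 0.80 to 4.09), the step from E9.5 to E10.5 not (0.37, -0.07 to 0.81). Endothelial cells held 2 UMIs in all, 1 at E9.5 and 1 at E10.5. Cardiac progenitors stood at 0.0434, 0.0697, 2.03 and 2.01 CPM and muscle progenitors at 0.927, 0.261, 0.597 and 0.788.

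The cardiomyocyte level of Erbb4 was at least 7.17-fold higher than the endothelial level at E8.0 and at least 3.70-fold higher at E8.25 by the exact 95% limits, the endothelial sums holding 0 UMIs and the cardiomyocyte sums 13 and 4. At E9.5 and E10.5, where the endothelial sum held 1 UMI, the log2 ratio of endothelial to cardiomyocyte cells was -6.04 (interval -11.36 to -3.54) and -7.41 (-12.73 to -4.88). The difference passed over all genes (edgeR, adjusted p = 3.34e-05), but its fitted size of -6.80 depends on the prior count and is no bound. Cardiomyocytes exceeded progenitors by 4.30 ± 0.28 (edgeR, adjusted p = 4.18e-05, higher in 4 of 4 libraries), with within-library ratios of 5.16, 5.21, 3.84 and 4.17, the first 2 resting on 2 progenitor UMIs each. The late against early change of that difference, -0.97, did not pass (adjusted p = 0.500).

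Cardiomyocyte-gated cells were 3.33%, 1.07%, 9.46% and 2.46% of the cells and held 72.2%, 40.0%, 63.0% and 48.0% of the Erbb4 UMIs. A UMI was found in 4.64%, 6.45%, 25.6% and 29.7% of them, or 0.844%, 3.23%, 8.65% and 16.2% after thinning. In erythroid-gated cells 2 of 1026 had a UMI at E10.5 (0.195%) and none at E8.0 or E8.25. Among cardiomyocytes, cells with Myl2, a ventricular myosin light chain, stood at 4.30, 5.55, 17.1 and 22.0 CPM. Cells with Nr2f1, a transcription factor of the atria, and without Myl2 stood at 25.1 and 28.8 CPM in the late libraries, and the ratio of ventricular to atrial cells was within counting error at both stages (-0.55, interval -1.10 to 0.00, and -0.39, -1.22 to 0.46). At E8.0 and E8.25 only 4 and 5 cells were of the atrial kind.

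At E9.5 and E10.5, cardiac progenitors with more cardiomyocyte markers also held more Erbb4. Cells with 3 or more of the 8 markers had 4.37 CPM at E9.5 and 10.47 at E10.5, against 0.693 and 0.256 in cells with fewer (log2 ratio 2.66, interval 1.17 to 4.44, and 5.35, 3.28 to 8.51). At E8.0 and E8.25 each set held at most 1 UMI. In the same cells at E9.5 and E10.5 Nrg1 ran the other way, as given above, and the Erbb2 ratio was within counting error.

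**Figure D2:**
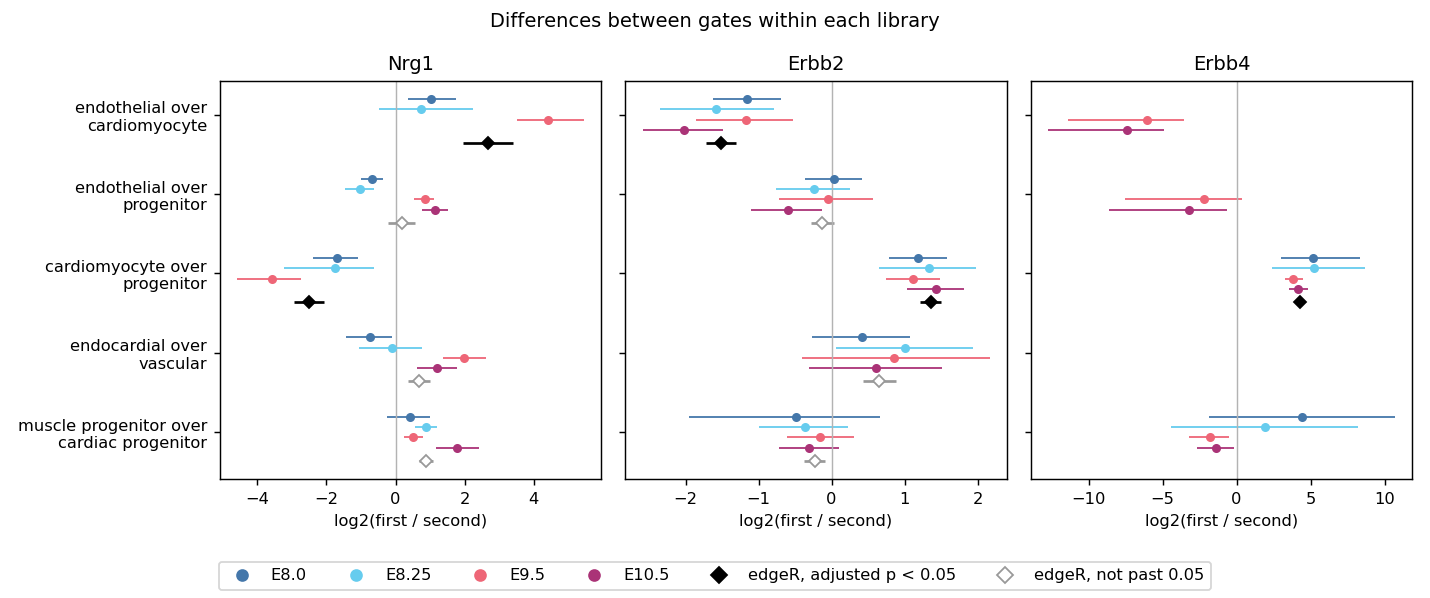
Log2 ratio of the first gate to the second (x axis) for 5 comparisons of gates (y axis) in Nrg1, Erbb2 and Erbb4. Points are single libraries with their 95% counting intervals, left out where a sum is 0, and diamonds are edgeR estimates with SE, filled where the adjusted p is under 0.05 and left out where a gate holds under 4 UMIs in all. The Nrg1 ratios of endocardial to vascular cells and of endothelial cells to progenitors change sign between the early and the late libraries, and the Erbb2 ratios do not spread as far. The Nrg1 ratio of endocardial to vascular cells at E8.25 is within counting error.

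Erbb3 had few counts in the heart and muscle gates and passed the count filter in none of the 5 comparisons. Over all retained cells it stood at 0.0594, 0.849, 0.439 and 1.55 CPM, from 9, 90, 31 and 198 UMIs. Cardiomyocyte-gated cells held 0, 0, 1 and 3 UMIs, endothelial cells 1, 1, 1 and 8, and progenitors 0, 14, 0 and 33. At E10.5 the levels of these gates were 0.991, 1.14 and 1.58 CPM, against 1.55 over all retained cells. Of the 8 endothelial UMIs at E10.5, 6 were in endocardial cells (2.09 CPM, interval 0.77 to 4.55). The erythroid background was 0.118 CPM at E8.25 and 0.142 at E10.5.

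Most of the Erbb3 of the E8.25 library lay in few cells. Over all retained cells, 86 had 3 or more neural crest markers, such as Sox10 and Foxd3, and these held 75 of the 90 UMIs, at 19.7 CPM (interval 15.5 to 24.7). This set overlaps the progenitor gate. All 18 cells of the library with 2 or more UMIs of Erbb3 were in it, and 3 of them were progenitor-gated. Cells outside every gate and marker set held 9 UMIs, at 0.149 CPM, a log2 ratio of 7.05 (interval 6.04 to 8.23). A UMI of Erbb3 was found in 50 of the 86 cells (58.1%, interval 47.0 to 68.7), or in 6.98% after thinning, at a median depth of 44618 UMIs. The same cells had 16.001 CPM of Erbb2 against 10.6 outside, 3 UMIs of Nrg1 and none of Erbb4. How these cells came into the sort was not tested.

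At E9.5 and E10.5 the neural crest set held 1 and 6 cells, with 1 and 8 UMIs of Erbb3, and it was not found at E8.0. Most of the Erbb3 at E9.5 and E10.5 lay outside this set. Cells outside every gate and marker set stood at 0.149, 0.611 and 2.09 CPM from E8.25 to E10.5, each step beyond counting error. At E10.5 these cells held 129 UMIs, and 26 of them had 2 or more, with up to 5 in a cell. Cells with 3 or more epithelial markers stood at 20.7 CPM at E10.5 (5 UMIs in 12 cells, interval 6.72 to 48.3). Cells with 3 or more mesothelial markers such as Wt1 and Upk3b, genes of the outer lining of the heart, stood at 3.75 and 2.22 CPM in the late libraries.

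The mesothelial cells, taken from all retained cells with gated ones included, also held Erbb4. Their level was 3.75 CPM at E9.5 (6 UMIs in 70 cells) and 5.55 at E10.5 (30 UMIs in 234 cells), against 1.03 and 0.340 CPM in cells outside every gate and marker set. The log2 ratio was 1.87 (interval 0.33 to 3.12) and 4.03 (3.18 to 4.91). At E9.5 all ungated cells held 40 UMIs of Erbb4, 37 of them outside the marker sets. Part of the 6 mesothelial UMIs therefore lay in gated cells. The mesothelial cells stood at 4.38 and 1.11 CPM of Nrg1, below the cells outside (9.94 and 3.33 CPM), and at 11.3 and 12.0 CPM of Erbb2.

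**Figure D3:**
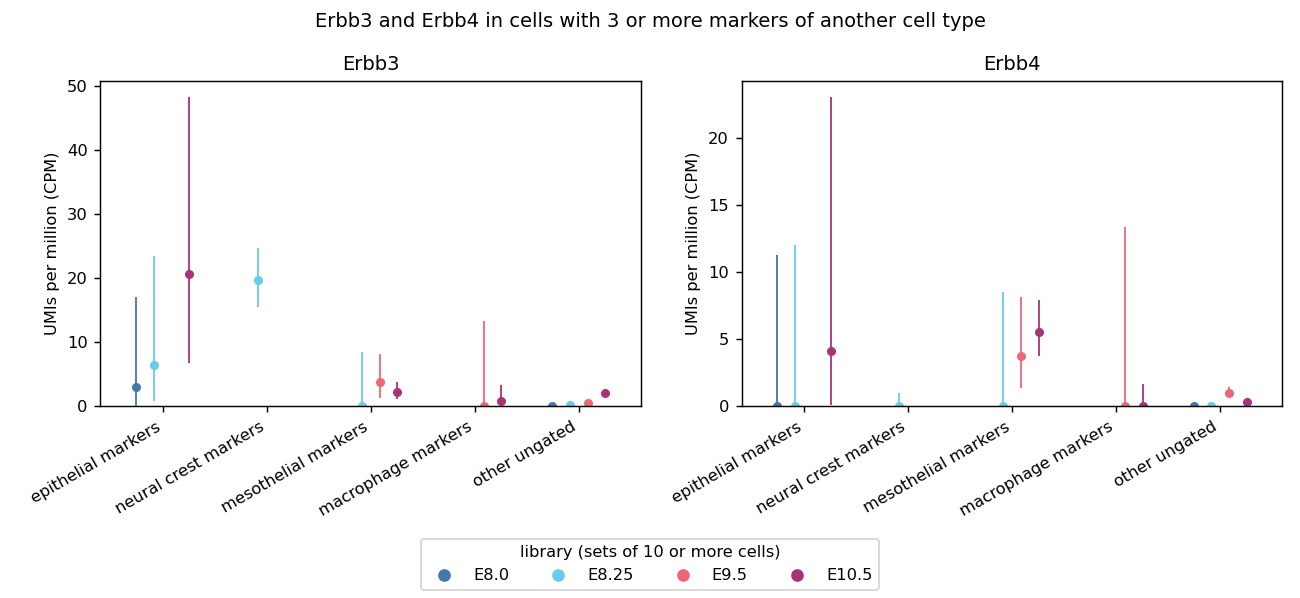
Level of Erbb3 (left) and Erbb4 (right) in CPM (y axis, linear) in cells with 3 or more markers of another cell type and in the ungated cells outside these sets (x axis), by library (colour), for sets of 10 or more cells with exact Poisson 95% intervals. The marker sets are taken from all retained cells, gated ones included. Erbb3 is at 19.7 in cells with neural crest markers at E8.25, and Erbb4 is at 5.55 in cells with mesothelial markers at E10.5.

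The rest of the neuregulin and EGF pathway was read from a list of 23 genes without the members, holding other ligands, Egfr, the proteases that shed the ligands, inhibitors and adaptors. In endothelial against cardiomyocyte cells 12 of the 23 could be tested, 4 were higher in endothelial cells and none was lower, where 41.2% of all genes passed in either direction, with a median difference of 0.52 on the log2 scale against 0.02 over all genes tested. The 4 were Adam10, a sheddase (0.83 ± 0.12, adjusted p = 0.00133), Errfi1, an inhibitor of ErbB kinases (0.99 ± 0.21, adjusted p = 0.00761), and the adaptors Shc1 (1.11 ± 0.13, adjusted p = 0.000633) and Pik3r1 (1.81 ± 0.25, adjusted p = 0.00138). All adjusted p-values here are from edgeR, and each of the 4 was higher in 4 of 4 libraries.

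In endothelial cells against progenitors 9 of 15 tested genes were higher and none lower, where 42.1% of all genes passed, with a median of 0.50 against -0.03 over all genes. These were the ligand Hbegf (1.40), the proteases Adam10 (1.21), Adam17 (0.42) and Adam19 (1.47), the inhibitor Errfi1 (0.54) and the adaptors Gab1 (1.66), Shc1 (1.56), Pik3r1 (0.86) and Grb2 (0.50). In cardiomyocytes against progenitors 4 of 16 were higher and 1 lower, where 38.1% of all genes passed, with a median of 0.23 against -0.02. Hbegf (1.59 ± 0.32), Adam19 (1.31 ± 0.15), Grb2 (0.70 ± 0.11) and Shc1 (0.41 ± 0.13) were higher and Pik3r1 was lower (-0.93 ± 0.29). Hbegf, which binds EGFR and ErbB4, stood at 26.3, 24.4, 27.4 and 18.8 CPM in cardiomyocytes.

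None of 12 tested pathway genes passed between endocardial and vascular cells, where 0.0704% of all genes did. Between muscle and cardiac progenitors 3 of 15 passed, where 3.64% of all genes did: Lrig1, an inhibitor of ErbB receptors (1.25 ± 0.26, adjusted p = 0.0378), and Pik3r1 (0.88 ± 0.15, adjusted p = 0.0185) were higher in muscle progenitors, and Hbegf was lower (-0.65 ± 0.14, adjusted p = 0.0437). The median over the list was -0.08 in the first comparison, against -0.0043 over all genes, and 0.0060 in the second, against 0.013.

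**Figure D4:**
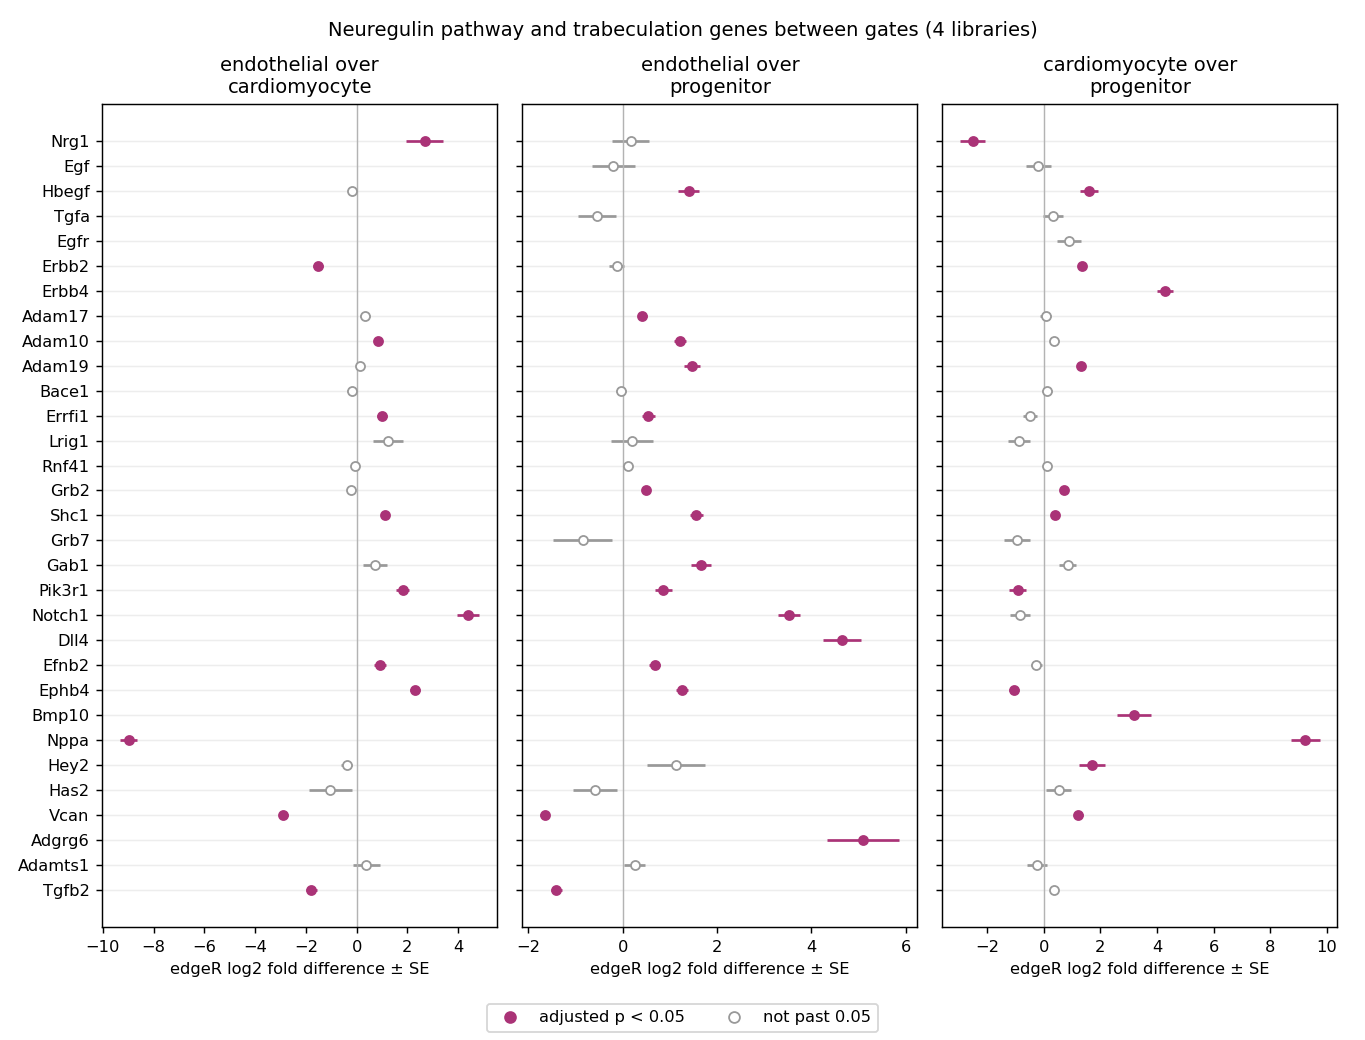
Difference between gates on the log2 scale (x axis, edgeR estimate with SE) in 3 comparisons. Tested genes of the neuregulin and EGF pathway list and of the trabeculation and endocardial list below are shown (y axis, by role). Genes past an adjusted p of 0.05 are filled, and genes with under 4 UMIs in a gate are left out. Among the pathway genes that are no members, every filled point in the 2 comparisons with endothelial cells lies on the endothelial side. Of the other list, Notch1 and Ephb4 also lie there, while Vcan and Tgfb2 lie on the opposite side in both.

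A second list of 12 genes held signals of trabeculation and of the endocardium. Between endothelial and cardiomyocyte cells 11 could be tested, of which 4 were higher in endothelial cells and 4 in cardiomyocytes, where 41.2% of all genes passed. On the endothelial side were Notch1 (4.39 ± 0.45, adjusted p = 0.000329), its ligand Dll4, the ephrin receptor Ephb4 (2.30 ± 0.20, adjusted p = 0.000161) and Efnb2 (0.93 ± 0.23, adjusted p = 0.0156). Dll4 was at least 21.6-fold, 32.0-fold and 16.6-fold higher at E8.0, E9.5 and E10.5 by the exact 95% limits, where cardiomyocytes held no UMI. On the cardiomyocyte side were the extracellular proteoglycan gene Vcan (-2.88 ± 0.18), the growth factor Tgfb2 (-1.78 ± 0.20), the natriuretic peptide Nppa and the trabecular growth factor Bmp10. Nppa was at least 19.9-fold and 240.1-fold higher in cardiomyocytes at E8.0 and E8.25, where endothelial cells held no UMI. Bmp10 had no endothelial UMI in any library and was at least 4.64-fold, 4.01-fold and 2.73-fold higher at E8.0, E9.5 and E10.5. None of 10 passed between endocardial and vascular cells.

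Against progenitors, endothelial cells were higher in 5 of 10 tested genes of this list and lower in 2, where 42.1% of all genes passed, and cardiomyocytes higher in 4 of 10 and lower in 1, where 38.1% passed. Adgrg6, an adhesion receptor of the endocardium, stood out among the first by its course, at 0.0965, 0.909, 23.4 and 46.9 CPM in endothelial cells, higher at E9.5 and E10.5 than before (5.11 ± 0.76 over progenitors, edgeR adjusted p = 0.00282, higher in 3 of 4 libraries). Between muscle and cardiac progenitors Tgfb2 alone of 8 passed (-0.94 ± 0.17, adjusted p = 0.0275).

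Genes whose pattern was most like that of each member were found by Pearson's correlation of log2(CPM + 10) over 27 sums of library and gate, as a description, since sums of 1 library share its depth. For Nrg1 these were Irx5 (0.80), Fabp5 (0.79), Itga9 (0.79), Sh3d19 (0.77) and Edn1 (0.75). Irx5, a homeobox gene, stood at 126 CPM in endocardial cells at E10.5 and at 2.31 in cardiomyocytes of that library. For Erbb2 they were Srf (0.93), Cdip1 (0.91), Dstn (0.90), Sccpdh (0.90) and Pdlim7 (0.90), and Srf, a transcription factor of muscle and cytoskeletal genes, stood at 29.4 to 43.8 CPM in cardiomyocytes. For Erbb4 they were Mitf (0.99), Mlip (0.99), Pvalb (0.98), Ppargc1a (0.98) and Lmod2 (0.98), and Mitf, a transcription factor, stood in cardiomyocytes at 4.31, 6.11, 23.7 and 31.4 CPM. Erbb3 reached only 2.17 CPM in these sums, and its nearest genes, with Mgp first (0.84), rest on low counts.

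Ligand and receptors were rarely seen in the same cell at this depth. In cells thinned to 5000 UMIs, Erbb2 and Erbb4 were found together in 4 of 370 cardiomyocyte-gated cells at E9.5 and in 5 of 185 at E10.5, where the product of the 2 shares gives 3.03 and 2.92 cells. Nrg1 and Erbb2 were found together in 2 of 85 endocardial cells at E9.5, where the product gives 1.56 cells.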

How the data were processed

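Single cells were measured in 4 libraries, 1 per stage, whose deposited files hold raw UMI counts per gene and cell. The authors made these counts with Cell Ranger 3.1.0 on mm10, per the submitters' processing notes, and deposited its filtered matrices; annotation and intron settings are not given in the sources used here. Version 2 of the 10x kit counts the 3′ ends of messages, so a level depends on capture of that end.

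Cells with under 1000 genes or over 10% mitochondrial UMIs were removed (2 to 28 a library), and then doublets called by Scrublet in scanpy 1.11.5 with an assumed rate of 0.8% per 1000 cells (70 to 517 a library). Gates required UMIs of at least 4 of 8 endothelial markers and 5 UMIs of the list per 10000, 5 of 8 cardiomyocyte markers and 50 per 10000, 2 of 5 erythroid markers and 500 per 10000, or 3 of 6 cardiac or 3 of 7 muscle progenitor markers. Cells passing both progenitor lists went to the list with the larger share found. The cuts were set on the markers alone. Not every marker of these lists is reported here. The members and the gene lists were chosen with earlier results of these data known. Levels are UMIs of a gene per 1000000 UMIs of the summed cells (CPM), with exact Poisson intervals. Shares have exact Clopper-Pearson intervals, and cells were also thinned to 5000 UMIs, which left out 23 cells at E9.5.

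Sums per library and gate were tested in R 4.3.3 with edgeR 4.0.16 (quasi-likelihood, TMM, filterByExpr, library as a block, gate markers left out) and Benjamini-Hochberg adjustment over all genes tested at 0.05. DESeq2 1.42.0 was an alternative. Embryos were pooled, so the p-values measure the spread between 4 libraries of different stages. Text names the 4 members, list genes that passed, and the 5 genes nearest to each member. The comparison of muscle with cardiac progenitors, the late against early change, and the splits by markers of other types and by cardiomyocyte markers were chosen after seeing the data. Positions and transcripts were taken from reference tables, matched by symbol for all 4 members.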

Additional observations from a re-analysis of the deposited data

Results flagged for a closer look

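Nrg1 in cardiac progenitors stood at 3.07 CPM at E10.5, far from the 16.6 to 17.6 CPM of the other 3 libraries, with a gap of 0.928 of the whole range. The 32 sets of 4 libraries examined for such a gap overlap and some hold few counts, so no rate by chance is given. Of them 4 had such a gap. The other 3 rest on few counts: Erbb3 in cardiomyocyte-gated cells at E10.5 (0.991 CPM, 3 UMIs), Erbb4 in endocardial cells at E10.5 (0.349 CPM, 1 UMI) and Erbb4 in vascular cells at E9.5 (0.517 CPM, 1 UMI).

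The difference of Nrg1 between gates differed between the late and the early libraries in 3 comparisons. It was larger on the log2 scale by 3.72 for endothelial over cardiomyocyte cells, by 1.84 for endothelial cells over progenitors and by 2.06 for endocardial over vascular cells, each past the threshold with edgeR. This division of the libraries was chosen after the Nrg1 levels had been seen to part there, so the p-values are no independent support for it. The late libraries also come from another dissection, and these cannot be told apart.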

How the results depend on the processing

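No difference of a member between gates that passed changed direction under an alternative. Over the alternative values of all member differences, 168 kept their side of the threshold, 6 came past it and 2 were lost. The 2 lost were Nrg1 in endothelial against cardiomyocyte cells without E9.5 and without E10.5 (adjusted p = 0.124 and 0.0546 by edgeR); leaving out each library in turn gave 1.88 to 3.80. Those that came past it were Nrg1 between endocardial and vascular cells with no filter on low counts (0.66), the late against early change of Nrg1 in cardiomyocytes against progenitors with no filter (-1.99), and Nrg1 in muscle against cardiac progenitors with DESeq2 (0.91), no filter (0.86), doublets kept (0.89) and without E10.5. That comparison ranged from 0.67 to 1.05 with each library left out. Nrg1 in endothelial cells against progenitors, which did not pass, ranged from -0.15 to 0.53 with each library left out. The late against early changes, counted among the member differences, were refitted only with no filter on low counts and with DESeq2. Other gates, thinning and left-out libraries were not tried for them.

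Counts of genes passing moved more. Without the replicate block, that is without a term for the library, 2924 genes passed in endothelial against cardiomyocyte cells, 2757 in endothelial cells against progenitors and 2224 in cardiomyocytes against progenitors, against 4494, 5205 and 4678 with it. It left 0 in endocardial against vascular cells (81 at an unadjusted p under 0.05, and 3 by DESeq2 with the block) and 0 in muscle against cardiac progenitors (510 at an unadjusted p under 0.05, and 422 by DESeq2 with the block). No call on a member changed without the block. Libraries left out in turn gave 2874 to 4317 genes in cardiomyocytes against progenitors, 0 to 59 in endocardial against vascular cells and 161 to 446 in muscle against cardiac progenitors. Endocardial against vascular cells gave 3 genes with DESeq2, 249 with no filter, 44 with gates on thinned cells and 21 with Nfatc1 and Npr3 both required. Muscle against cardiac progenitors gave 972 with no filter, 111 with looser and 700 with stricter gates.

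On the log2 scale, E10.5 over E8.0 in all cells was -1.05 for Nrg1, -0.88 without haemoglobin, mitochondrial and ribosomal protein genes and -0.74 without erythroid-gated cells. For Erbb2 it was -0.06, 0.11 and 0.25 in the same order and 0.091 as a mean over cells, so no direction is given for it. Thinning moved 15 of 16 shares and lowered each of these. The counts of Erbb3 in the main gates and of Erbb4 in endothelial cells limit what can be told of them.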
